A study of Mus musculus with 12 samples.

Results

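Langerin (Cd207) and 7 genes best known from skin epithelium (Epcam, Cdh1, Perp, Lamb3, Krt5, Krt14 and Plet1) were followed in type 1 conventional dendritic cells (cDC1) sorted from skin-draining lymph nodes (SDLN) and spleen (SPL). These 8 genes, of 19938 measured, were chosen by name to look at skin origin or carry-over in lymph node cDC1, and each was read by its only probe set. The series compared steady-state cDC1 with and without CD40, on 12 Affymetrix Mouse Gene 1.0 ST arrays in 4 groups of 3. All mice were naive, of C57BL/6 background, and carried CD40 fl/fl. The groups were SDLN cDC1 of Xcr1Cre+ mice, in which the cDC1-specific Xcr1-cre was meant to delete CD40, SDLN cDC1 of Xcr1++ mice, which carried no Cre, SPL cDC1 of Xcr1Cre+ mice and SPL cDC1 of Xcr1++ mice. SDLN cells were sorted as migratory cDC1, with intermediate CD11c, and SPL cells with high CD11c. Both gates also asked for XCR1, high MHC class II, and no B220 or Sirpa. Langerhans cells carry Sirpa in mice, and the purity of the sorted cells was not tested here. Age and sex of the mice were not used here. Whether replicates came from separate animals is not said in the labels, and every p-value rests on the spread among these 12 arrays, which may be technical.

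Langerin is a C-type lectin that builds the Birbeck granules of Langerhans cells, and in mice it is also made by dermal cDC1 and by part of the splenic cDC1. Migratory cDC1 reach skin-draining nodes by lymph from the dermis, where they lie next to an epidermis whose basal keratinocytes make the paired keratins Krt5 and Krt14 and rest on a laminin that contains Lamb3. Epcam and Cdh1 (E-cadherin) are adhesion molecules of epithelia and of Langerhans cells.

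The sort and the genotype labels were checked first. Xcr1, the sorted receptor, had intensities of 203 to 286 on SDLN arrays and of 1945 to 3508 on SPL arrays, a log2 difference of -3.63 (SE 0.15; limma adjusted p = 3.35e-10). Of 15 genes of cDC1 identity, 10 were lower and 3 higher in SDLN. Of 6 genes of the migratory state, 5 were higher in SDLN, and Cd83 did not pass (log2 difference -0.18, limma adjusted p = 0.313). Among the higher ones, Ccr7 and Fscn1, a chemokine receptor and an actin bundler of migrating dendritic cells, differed by 1.36 and 4.49 on the log2 scale. Cd40 did not follow the genotype labels on every array. It was lower on Xcr1Cre+ arrays than on Xcr1++ arrays of the same number for numbers 1 and 2 (ratios of 0.668 and 0.5 in SDLN, 0.638 and 0.407 in SPL) and higher for number 3 (2.18 in SDLN, 1.84 in SPL), and it is not known here whether its probes lie in the deleted part. The genotype is therefore used only as the label of an array.

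Of the 8 genes, 7 differed between tissues, and not all in the same direction. Epcam, Cdh1, Perp, Lamb3 and Krt14 were higher in SDLN, Cd207 and Plet1 were lower in SDLN, and Krt5 did not pass the test. The same 7 genes passed, in the same directions, in arrays labelled Xcr1Cre+ and in arrays labelled Xcr1++ (limma, adjusted p under 0.05). Many other genes passed too: 37% of all genes in the comparison averaged over both labels (18.6% higher and 18.3% lower in SDLN), 28.3% in Xcr1Cre+ arrays (13.1% higher, 15.2% lower) and 26.1% in Xcr1++ arrays (12.9% higher, 13.2% lower). Those 7 genes also had no overlap between the 6 SDLN and the 6 SPL arrays, as 25.8% of all genes did (12.1% with SDLN above, 13.7% with SDLN below). In bulk RNA, fewer cells of a type and less RNA per cell cannot be told apart.

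**Figure D1:**
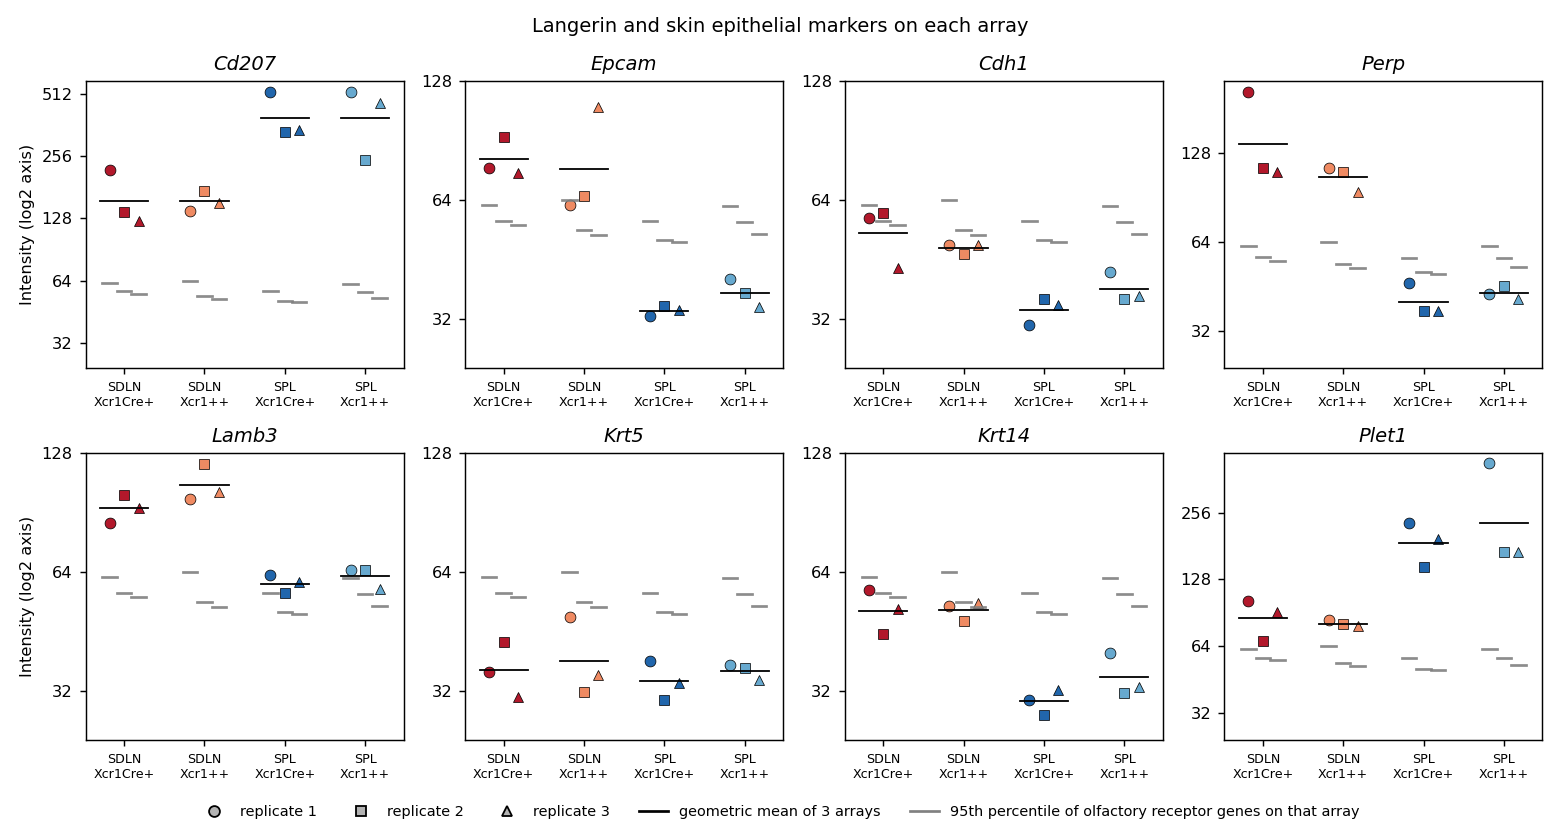
Intensity of the 8 genes on each of the 12 arrays (log2 axis), by tissue and genotype label, with replicates as symbols, the geometric mean of each group of 3 as a black line, and that array's background, the 95th percentile of 1015 olfactory receptor genes, in grey. Cd207 and Plet1 sit above background everywhere and higher in SPL; Epcam and Perp sit below background in SPL and mostly above it in SDLN; Krt5 stays below it on all 12 arrays.

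Array intensities never reach 0, so each gene was set against genes that dendritic cells are not known to use. Background was taken on each array as the 95th percentile of 1015 olfactory receptor genes, and it lay at intensities of 50.1 to 63.9. Cd207, Lamb3 and Plet1 were above it on all 12 arrays, and Perp on 6 of 6 SDLN and 0 of 6 SPL arrays. Epcam was above it on 5 of 6 SDLN and 0 of 6 SPL arrays. Cdh1 and Krt14 each passed it on 1 SDLN array and on no SPL array, and Krt5 on none. The olfactory receptor genes themselves rarely passed the tissue test: 5.42% were higher and 0.591% lower in SDLN, with a median log2 difference of 0.07, against 0.05 over all genes. Where a gene lay below background in a tissue, its log2 difference gives no size or rank of a change. A fold is then given only as a bound against background, and only where the other tissue was measured above it.

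Langerin mRNA was present in cDC1 of both tissues and was lower in those of the skin-draining nodes. Cd207 had intensities of 219, 138 and 124 on SDLN Xcr1Cre+ arrays and of 139.7, 174 and 153 on SDLN Xcr1++ arrays. It had 528, 337 and 345 on SPL Xcr1Cre+ arrays, and 528, 245 and 466 on SPL Xcr1++ arrays. Every SDLN array lay below every SPL array. SDLN intensities were 0.395 times the SPL ones, a log2 difference of -1.34 (SE 0.20; limma adjusted p = 9.28e-05). The difference was -1.34 within arrays labelled Xcr1Cre+ (SE 0.29; limma adjusted p = 0.00249) and -1.34 within arrays labelled Xcr1++ (SE 0.29; limma adjusted p = 0.00264). With the arrays numbered 3 left out, both within-label tests missed the threshold, at -1.28 (adjusted p = 0.059) and -1.20 (adjusted p = 0.0794). With array weights the difference was -0.80 within Xcr1++ arrays and -1.38 within Xcr1Cre+ arrays. On the log2 scale SPL arrays spread more widely than SDLN arrays within Xcr1++ (SD 0.59 against 0.16). Within Xcr1Cre+ they did not (SD 0.36 against 0.43). The lowest SPL value was on Xcr1++ replicate 2.

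Plet1, a membrane glycoprotein named for placental trophoblast and known in mouse from progenitors of the hair follicle, followed the same direction as langerin. It had 102, 67.6 and 91.0 on SDLN Xcr1Cre+ arrays and 84.2, 80.3 and 78.5 on SDLN Xcr1++ arrays, against 229.6, 146 and 196 on SPL Xcr1Cre+ arrays and 428, 169.8 and 170.3 on SPL Xcr1++ arrays. All 12 arrays were above background, and no SDLN array reached the lowest SPL array. SDLN intensities were 0.4 times the SPL ones, a log2 difference of -1.32 (SE 0.21; limma adjusted p = 0.000151). SPL Xcr1++ replicate 1 stood above the other SPL arrays. Within arrays labelled Xcr1Cre+ the difference was -1.13 (SE 0.30; limma adjusted p = 0.0105), and it missed the threshold without the arrays numbered 2 (-1.14, adjusted p = 0.0532) or numbered 3 (-1.14, adjusted p = 0.0981).

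Cd207 and Plet1 were the only members lower in SDLN, and their upstream sequences are shown because both hold a match to the AP-1 motif TGANTCA, which reads the same on both strands. The RefSeq table (GRCm38.p6) gave a window for 6 of the 8 genes. The 250 bases before the start site lie at chr6:83677858-83678107 on the minus strand for Cd207 and at chr9:50494275-50494524 on the plus strand for Plet1. They are given 5′ to 3′ along the gene's strand, with every match to the searched motifs in capitals.
Cd207: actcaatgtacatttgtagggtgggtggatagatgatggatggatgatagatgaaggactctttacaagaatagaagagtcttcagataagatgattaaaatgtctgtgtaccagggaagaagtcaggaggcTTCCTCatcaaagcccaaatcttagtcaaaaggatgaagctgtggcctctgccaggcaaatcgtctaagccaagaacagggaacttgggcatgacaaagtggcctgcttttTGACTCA
Plet1: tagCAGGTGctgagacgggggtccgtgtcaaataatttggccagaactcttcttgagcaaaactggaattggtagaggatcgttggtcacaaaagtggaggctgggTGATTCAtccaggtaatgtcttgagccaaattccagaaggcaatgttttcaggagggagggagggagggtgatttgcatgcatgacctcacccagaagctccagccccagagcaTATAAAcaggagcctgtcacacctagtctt
The AP-1 match began 7 bases before the start in Cd207 (TGACTCA) and 144 bases before it in Plet1 (TGATTCA). No such match was found in the windows of Epcam, Lamb3, Krt5 or Krt14, and 6.75% of all 32851 windows held one. Cd207 also held TTCCTC, the reverse of the PU.1 core GAGGAA (23.3% of windows), and Plet1 held CAGGTG, an E-box (17.2% of windows on either strand), and TATAAA (12.4%). The PU.1 core was also in the windows of Lamb3 and Krt14, and an E-box in those of Lamb3, Krt5 and Epcam. TGTGGT, the core bound by RUNX factors, was in none of the 7 member windows and in 14% of all. These motifs were picked after the sequences were seen, and a match describes letters, not binding.

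Every list count here and below, unless a label is named, is from the comparison averaged over both labels. It stands beside 18.6% of all genes higher and 18.3% lower in SDLN. Among 11 regulators of langerin and of Langerhans cells, 4 were higher and 5 lower in SDLN, with a median log2 difference of -0.22 against 0.05 over all genes. The lower ones included Ahr, the aryl hydrocarbon receptor (-3.16, SE 0.16), and Runx3, which Langerhans cells of mice need (-1.74, SE 0.09). Tgfbr2, a receptor chain for TGF-beta, was lower by a log2 difference of -1.44 (SE 0.10), while Tgfbr1, its partner chain, was higher by 0.59 (SE 0.12). Id2, an inhibitor of E proteins, and Batf3, the cDC1 factor that pairs with Jun proteins at AP-1 sites, were higher by 0.77 (SE 0.12) and 0.63 (SE 0.10). Irf8 differed by -0.22 (SE 0.12; limma adjusted p = 0.192). The 4 measured markers of Langerhans cells that cDC1 lack split both ways: Sirpa was higher by 0.43, Itgam and Csf1r were lower by log2 differences of -0.34 and -0.38, and Adgre1 differed by -0.24 and did not pass. Itgam was above background on 0 of 6 SDLN and 3 of 6 SPL arrays, and Adgre1 on none. Within a label 1 marker passed, as lower: Csf1r in Xcr1Cre+ arrays and Itgam in Xcr1++ arrays. Sirpa passed within neither. The summed intensity of the 4 markers was 243 to 278 on SDLN arrays and 259 to 285 on SPL arrays.

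Epcam and Perp were above background in SDLN and below it in SPL. Epcam, which joins epithelial cells to each other and is carried by Langerhans cells, had 77.0, 92.3 and 75.0 on SDLN Xcr1Cre+ arrays and 62.2, 65.7 and 110.3 on SDLN Xcr1++ arrays. It had 32.6, 34.5 and 33.7 on SPL Xcr1Cre+ arrays and 40.5, 37.2 and 34.4 on SPL Xcr1++ arrays. The SPL values were close together and all below background, and the SDLN values ran wider, with Xcr1++ replicate 3 on top and Xcr1++ replicate 1 just under its background of 63.9. The log2 difference was 1.16 (SE 0.12; limma adjusted p = 3.37e-06). Since SPL gave only a bound, Epcam was at least 1.44-fold higher in SDLN, the SDLN mean against the SPL arrays' background. Its window at chr17:87635729-87635978, plus strand, is shown because it held 2 E-boxes (CAGGTG or its reverse CACCTG, in capitals), 187 and 19 bases before the start.
Epcam: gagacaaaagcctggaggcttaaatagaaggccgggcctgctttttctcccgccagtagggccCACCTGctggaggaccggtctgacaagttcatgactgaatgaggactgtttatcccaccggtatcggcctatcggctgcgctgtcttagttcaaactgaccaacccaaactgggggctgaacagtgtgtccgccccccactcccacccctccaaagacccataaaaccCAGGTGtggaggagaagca

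Among 14 measured genes of tight junctions and partners of EpCAM, 6, Epcam itself included, were higher and 3 lower in SDLN, with a median of 0.13. F11r, the junctional adhesion molecule JAM-A, went furthest, with 854 to 2740.4 on SDLN arrays against 55.0 to 70.1 on SPL arrays (log2 difference 4.80, SE 0.26). Cldn1, a claudin that EpCAM binds, had 556 to 979 on SDLN arrays against 196 to 286 on SPL arrays (1.77, SE 0.14), and Cldn7, another such claudin, had 65.4 to 88.6 against 55.4 to 75.4 (0.31, SE 0.11). The protease St14, which cleaves EpCAM, was higher by 0.69 (SE 0.13). Its 2 inhibitors moved in opposite directions: Spint2 was higher by 1.54 (SE 0.16) and Spint1 lower, with a log2 difference of -2.39 (SE 0.15). The EpCAM-associated surface proteins Cd9 and Cd44 were lower, with log2 differences of -1.02 (SE 0.13) and -1.50 (SE 0.13). Of 11 epithelial regulators, Klf5 alone was higher (1.61, SE 0.10) and Klf4 alone lower (-0.66, SE 0.12).

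Cdh1, the cadherin that anchors Langerhans cells to keratinocytes, was near background in both tissues. It had 57.6, 59.3 and 43.0 on SDLN Xcr1Cre+ arrays and 49.2, 46.8 and 49.2 on SDLN Xcr1++ arrays, against 30.9, 35.9 and 34.8 on SPL Xcr1Cre+ arrays and 42.0, 35.9 and 36.5 on SPL Xcr1++ arrays. The tissues did not overlap, but 43.0 and 42.0 nearly met, and 1 SDLN array alone passed background. The log2 difference was 0.50 (SE 0.09; limma adjusted p = 0.000306), and no fold is given because neither tissue was measured clear of background. Within Xcr1Cre+ arrays it was 0.64 (SE 0.12; limma adjusted p = 0.000984) and within Xcr1++ arrays 0.35 (SE 0.12; limma adjusted p = 0.0483). That last value depends on the processing: quantile normalization gave 0.31 (adjusted p = 0.0741), centring on the olfactory receptor genes 0.31 (adjusted p = 0.111), and leaving out 1 array gave adjusted p between 0.0144 and 0.162.

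Another cadherin, Cdh2 (N-cadherin), had 847 to 1116 on SDLN arrays against 28.8 to 35.5, all below background, on SPL arrays, so it was at least 17.9-fold higher in SDLN (limma adjusted p = 1.21e-12). Of 18 genes of adherens junctions and desmosomes, 5, Cdh1 and Cdh2 included, were higher and 1 lower in SDLN, with a median of 0.10. Ctnna1 and Jup, the catenins alpha and gamma that tie cadherins to the cytoskeleton, were higher by 1.22 (SE 0.13) and 0.81 (SE 0.19), and Pkp4 was lower, at -0.79 (SE 0.10). Dsg2 also passed as higher, but was below background on all 12 arrays. Dsp, the desmosomal plaque protein of epithelia, was below background on all 12 arrays. The receptor for E-cadherin, integrin CD103 with its beta chain, was lower in SDLN: Itgae had 63.7 to 111 on SDLN arrays against 400.4 to 1049.7 on SPL arrays (log2 difference -2.82, SE 0.21), and Itgb7 78.1 to 109 against 292 to 389 (-1.88, SE 0.10).

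Perp, a tetraspan protein of desmosomes and a target of p53 and of its relative p63, likewise had no SPL array above background. It had 205, 114 and 110.4 on SDLN Xcr1Cre+ arrays and 114, 110.4 and 94.4 on SDLN Xcr1++ arrays, against 46.6, 37.5 and 37.5 on SPL Xcr1Cre+ arrays and 42.6, 45.5 and 41.2 on SPL Xcr1++ arrays. All SDLN arrays were above background, and SDLN Xcr1Cre+ replicate 1 stood above the other 5 SDLN arrays. The log2 difference was 1.53 (SE 0.14; limma adjusted p = 5.69e-07), and Perp was at least 2.21-fold higher in SDLN against the SPL background. Of 6 genes of its family, Perp itself included, 3 were higher and 1 lower. Emp2 had 270.3 to 528 on SDLN arrays against 37.4 to 56.5, all below background, on SPL arrays. It was at least 7.05-fold higher in SDLN. Pmp22 was higher by 0.37, and Emp1 was lower, at -2.17 (SE 0.21). Of 12 measured p53 targets, 8, Perp itself included, were higher and 2 lower in SDLN (median 0.60). Trp53inp1, Gadd45a and Ccng1 were higher by 2.10, 1.22 and 1.19, and Sesn2 was lower, at -0.68, as was Zmat3, which was below background on 11 of 12 arrays. Trp63, which encodes p63, had 45.0 to 54.2 on SDLN arrays and 45.2 to 55.3 on SPL arrays, a log2 difference of -0.04 (SE 0.07; limma adjusted p = 0.715).

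Lamb3, the beta chain of the laminin under the epidermis, was higher in SDLN and above background in both tissues, but only just in SPL. There it exceeded 95.5% to 96.9% of the olfactory receptor genes, whose 95th percentile is the background. It had 85.2, 100.4 and 93.1 on SDLN Xcr1Cre+ arrays and 97.8, 120.1 and 102 on SDLN Xcr1++ arrays, against 62.8, 56.6 and 60.3 on SPL Xcr1Cre+ arrays and 64.6, 64.8 and 58.0 on SPL Xcr1++ arrays. The lowest SDLN array lay well above the highest SPL array. SDLN intensities were 1.62 times those of SPL, whose values lay close to background. The log2 difference was 0.70 (SE 0.08, limma adjusted p = 5.69e-06). Lama3, the alpha chain of the same laminin, was below background on all 12 arrays and differed by 0.10 (SE 0.06; limma adjusted p = 0.204). Among 14 measured laminins and laminin receptors, 3 were higher and 2 lower, beside 18.6% and 18.3% of all genes, with a median of 0.11. Besides Lamb3, the tetraspanin Cd151 and the laminin chain Lamb2 were higher, by 0.70 and 0.29. The receptor chains Itga3, which had 78.0 to 131 on SDLN arrays against 239 to 374 on SPL arrays, and Itga6 were lower, with log2 differences of -1.76 (SE 0.13) and -0.29 (SE 0.09).

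The keratins Krt5 and Krt14, which pair in the filaments of basal keratinocytes, both lay mostly in the range of the olfactory receptor genes, and Krt14 alone passed the tissue test. Krt5 had 35.8, 42.5 and 30.9 on SDLN Xcr1Cre+ arrays and 49.2, 31.9 and 35.2 on SDLN Xcr1++ arrays, against 38.1, 30.3 and 33.6 on SPL Xcr1Cre+ arrays and 37.2, 36.5 and 34.2 on SPL Xcr1++ arrays. The tissues overlapped, with 42.5 and 49.2 in SDLN above every SPL array, and no array passed background. The log2 difference was 0.09, with a 95% interval of -0.15 to 0.32 (limma adjusted p = 0.575). Krt14 had 57.8, 44.6 and 51.6 on SDLN Xcr1Cre+ arrays and 52.4, 48.2 and 53.3 on SDLN Xcr1++ arrays, against 30.4, 27.9 and 32.2 on SPL Xcr1Cre+ arrays and 40.0, 31.7 and 32.8 on SPL Xcr1++ arrays. The SDLN arrays were all above the SPL arrays, yet 1 of the 12, SDLN Xcr1++ replicate 3, passed background. The log2 difference was 0.66 (SE 0.08; limma adjusted p = 1.39e-05), with no fold given for the reason stated for Cdh1. On the SDLN arrays Krt14 exceeded 90.1% to 95.2% of the olfactory receptor genes, and on the SPL arrays 75.4% to 85.8%.

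**Figure D2:**
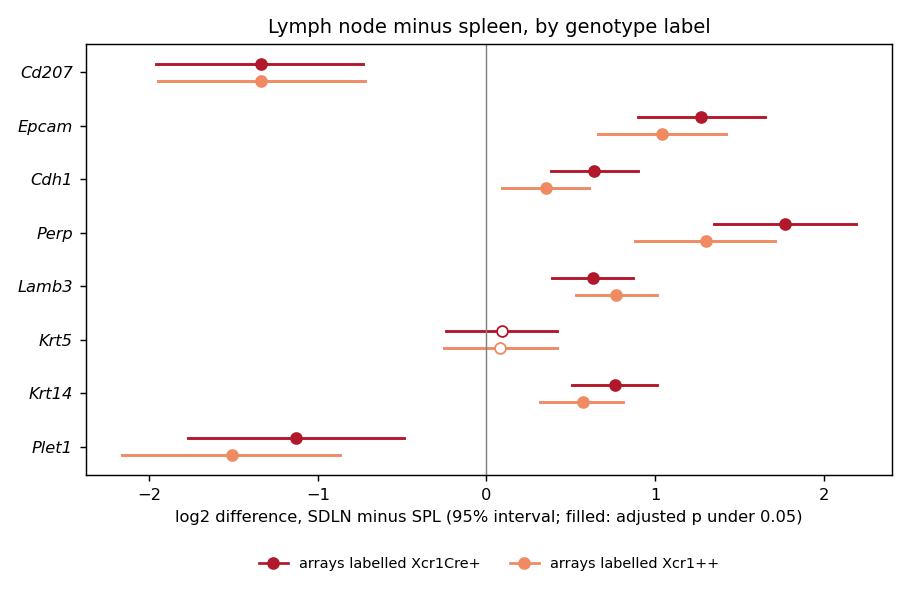
Log2 difference in intensity, SDLN minus SPL, of the 8 genes within arrays labelled Xcr1Cre+ (dark) and Xcr1++ (light), with 95% intervals; filled points passed limma at an adjusted p under 0.05. Cd207 and Plet1 lie left of 0, Krt5 spans 0, and the other 5 genes lie right of 0 under both labels.

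Markers of keratinocytes were read as whole lists beside these values. Of 14 measured genes of basal keratinocytes, 6 were higher and 1 lower in SDLN, with a median log2 difference of 0.11 and summed intensities of 939 to 1059.9 on SDLN arrays and 674 to 771 on SPL arrays. The higher ones were Perp, Lamb3 and Krt14 with Dst (1.20, SE 0.07), a cytoskeletal linker, Krt15 (0.34, SE 0.09) and Sfn (0.31, SE 0.10). Without the 4 members, 3 of 10 were higher and 1 lower, and the sums were 641 to 684 on SDLN arrays and 521 to 593 on SPL arrays. Col17a1 and Itgb4, of the hemidesmosome, differed by 0.10 and 0.05 and did not pass. On every SDLN array 6 of the 14 lay below background: Krt5, Trp63, Itga6, Lama3, Dsg3 and Dsc3. The part of keratinocyte RNA in the values of Epcam, Perp, Lamb3 and Krt14 was not tested.

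Among 9 measured genes of suprabasal keratinocytes, 6 were higher in SDLN and 3 did not pass, with a median of 0.37 and sums of 535 to 666 on SDLN arrays and 392 to 444 on SPL arrays. Within Xcr1Cre+ arrays 6 were higher, beside 13.1% of all genes, and within Xcr1++ arrays 3, beside 12.9%. Lgals7, a galectin of stratified epithelia, had 112 to 159 on SDLN arrays against 58.9 to 80.2 on SPL arrays (0.86, SE 0.11). Lor, loricrin of the cornified envelope, and Calml3, a calmodulin relative, also passed as higher, but both were below background on all 12 arrays. Sbsn, above background on all 12, was higher by 0.48 (SE 0.08). Ivl and Krtdap, below background throughout, differed by 0.02 and 0.14 and did not pass.

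Over the whole keratin family of 48 genes, 12 were higher and 1 lower in SDLN, beside 18.6% and 18.3% of all genes. Within Xcr1Cre+ arrays 6 were higher and 1 lower, beside 13.1% and 15.2% of all genes. Within Xcr1++ arrays 2 were higher and 1 lower, beside 12.9% and 13.2%. The family had a median of 0.09 against 0.05 over all genes. Most of the 12 higher keratins were above background on all SDLN arrays, among them Krt17 (0.53, SE 0.09) and Krt77 (0.42, SE 0.12). Krt14 passed background on 1 SDLN array and Krt16 on none. The lower one was Krt80 (-0.70, SE 0.10), above background on all 12 arrays. Of the 48, 28 lay below background on every SDLN array and 30 on every SPL array. The count of higher keratins depends on the scaling: with each array centred on the olfactory receptor genes, 5 were higher and 3 lower. That centring also moved the share of higher genes among all calls to 39.7%, against 50.4%.

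**Figure D3:**
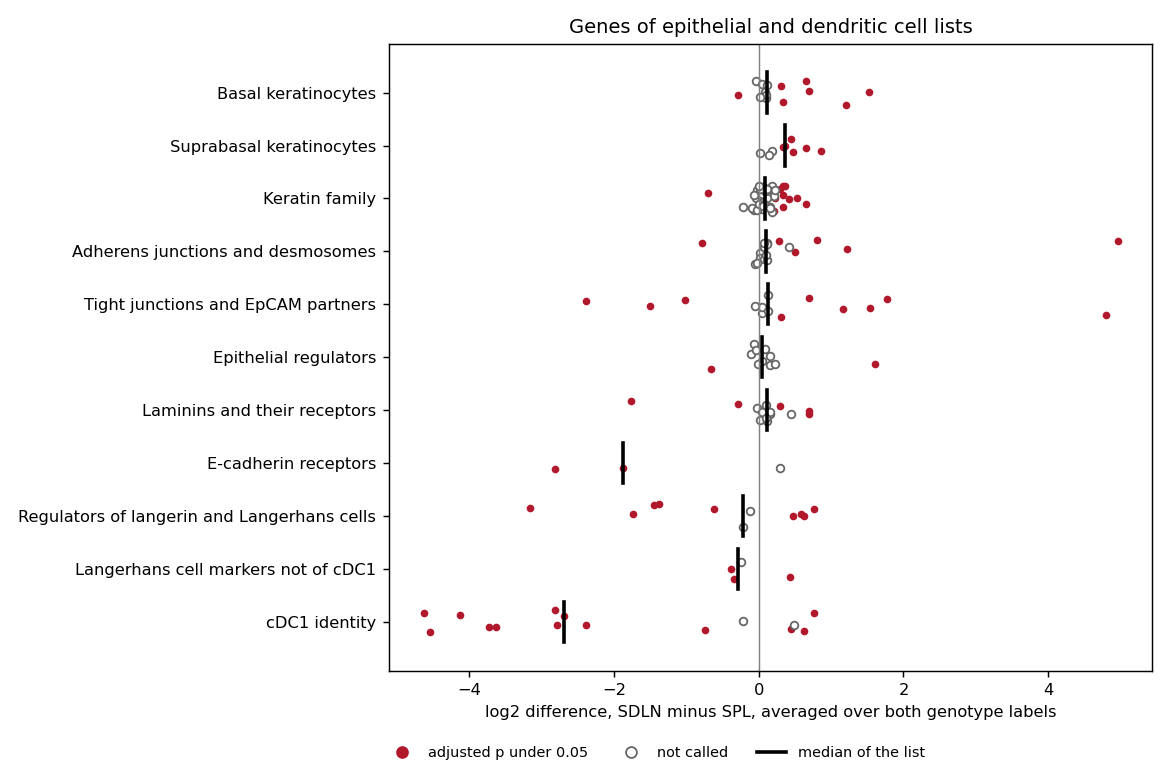
Log2 difference in intensity, SDLN minus SPL, averaged over both genotype labels, for each measured gene of 11 lists, with genes that passed limma filled and the median of each list as a bar. Keratinocyte and keratin genes gather near 0 with a tail to the right, the E-cadherin receptors and cDC1 identity genes have medians of -1.88 and -2.69, and the points farthest right are F11r and Cdh2, of which Cdh2 was below background in SPL.

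Other cells that skin or lymph node could add were read the same way. Of 6 melanocyte genes, 1 was lower in SDLN and 5 did not pass, with sums of 315 to 375 on SDLN arrays and 292 to 345 on SPL arrays. Of 7 fibroblast genes, 1 was higher, Dcn, which passed background on 1 SDLN array (81.8) and lay at 23.8 or more on the others, and the sums were 480.4 to 591 on SDLN arrays and 447 to 531 on SPL arrays. Of 9 measured genes of lymph node stroma and endothelium, 2 were higher (Ccl19 by 2.49, SE 0.21, and Flt4 by 0.71, SE 0.11) and 1 was lower (Pecam1 by a log2 difference of -2.93, SE 0.12), with sums of 838 to 1395 on SDLN arrays and 822 to 949 on SPL arrays. Of 8 macrophage genes, Vcam1 was higher, by 1.16, and Lyz2 and Cd68 were lower, at -3.67 and -2.50, with sums of 1138 to 1292 on SDLN arrays and 2789.8 to 2998 on SPL arrays. Of 4 measured B cell genes, Ms4a1 was lower, below background on all SDLN arrays, and the sums were 173 to 236 on SDLN arrays and 317 to 433 on SPL arrays. All 4 measured T cell genes were higher in SDLN, with sums of 491 to 1136 on SDLN arrays and 320.3 to 467 on SPL arrays. Their part in the values of the 8 genes was not tested.

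No difference between genotype labels passed the test for any of the 8 genes. An exchange of labels among the arrays numbered 3, whose Cd40 ran against them, was not tested. It would alter every difference below and every tissue difference given above within a label. None passed in SDLN, in SPL or in the test of whether the label's effect differed between tissues (limma, all adjusted p = 1), and 0% of all genes passed in each, with 402, 357 and 326 at an unadjusted p under 0.05. With array weights 2, 51 and 3 genes passed, and with the replicate number as a block none did, while the counts at an unadjusted p under 0.05 were then 1360, 886 and 1145. The intervals that follow are from the fit without the block. For Cd207 the log2 difference between Xcr1Cre+ and Xcr1++ arrays was 0.00 in SDLN (95% interval -0.61 to 0.62) and 0.01 in SPL (-0.61 to 0.62), and for Plet1 it was 0.08 in SDLN (-0.56 to 0.72) and -0.31 in SPL (-0.95 to 0.33). The narrowest intervals belonged to Lamb3, at -0.20 in SDLN (-0.43 to 0.04) and -0.06 in SPL (-0.30 to 0.18). Perp had the smallest p, with 0.38 in SDLN (-0.04 to 0.79; limma unadjusted p = 0.0727). With the block its interval was 0.05 to 0.70 (limma unadjusted p = 0.0255, adjusted p = 0.716), that of the difference between tissues was 0.02 to 0.93, and that of Krt14 in SPL was -0.39 to -0.01 (adjusted p = 0.983). In SDLN, Perp on Xcr1Cre+ arrays was 1.81, 1.03 and 1.17 times its value on the Xcr1++ arrays of the same number. Lamb3 was lower on every Xcr1Cre+ array of SDLN than on its same-numbered Xcr1++ array, at ratios of 0.871, 0.836 and 0.915.

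**Figure D4:**
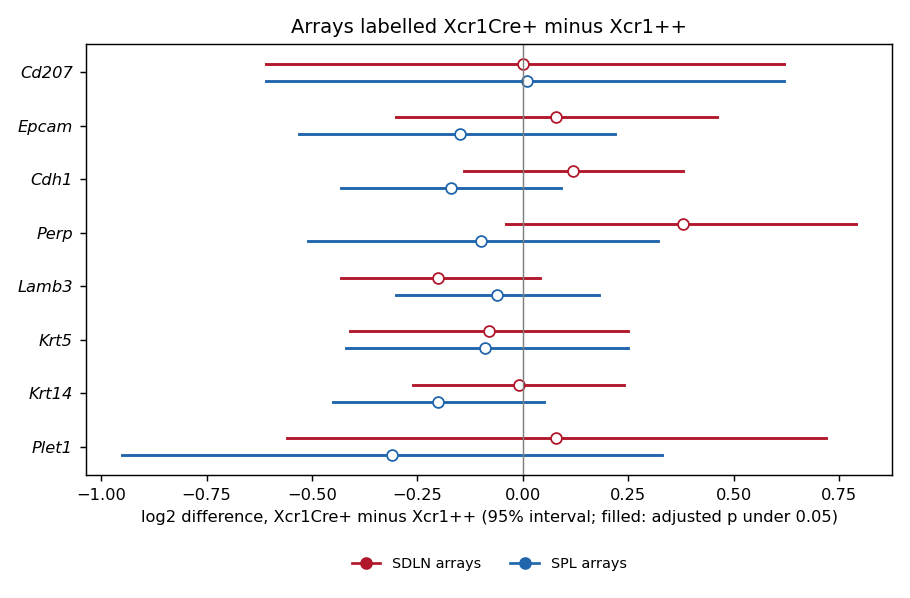
Log2 difference in intensity, Xcr1Cre+ minus Xcr1++, of the 8 genes in SDLN (red) and SPL (blue) arrays, with 95% intervals; open points did not pass limma at an adjusted p under 0.05. Every interval of this fit, without the replicate block, spans 0, and those of Cd207 and Plet1 are the widest.

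In the order of the 4 groups, both groups of a tissue stood next to each other for each gene that passed the tissue test. The lack of overlap between tissues already fixes this. For these genes no difference between the labels within a tissue passed at an adjusted p under 0.05, with or without the replicate block. The genes most like each member were sought among all 19938 by the root mean square difference of centred log2 values over the 12 arrays. For Cd207 these were Cisd1, Atad3a and Apoe (0.21 each), of which Apoe, an apolipoprotein, had 256 to 398 on SDLN arrays and 662 to 947 on SPL arrays. For Plet1 they were Eif4e (0.22), Dut (0.23) and Lrrc8d (0.24), for Epcam Thbs4 (0.13), Slc25a10 (0.14) and AU040320 (0.15), and for Perp Prm2, Pxmp2 and Zfp524 (0.21 each). Lamb3 was closest to Sfmbt2 (0.0869), Axl (0.092) and Kifc2 (0.0928). Krt14 was closest to Slc39a3 (0.0986), H2-Q10 (0.0992) and Mab21l2 (0.10), and Cdh1 to Myh7 (0.0999), Gpr19 (0.10) and Zfp708 (0.11). Krt5 was closest to Rhcg (0.0692), Gzmc (0.0717) and Gtsf1l (0.073).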

How the data were processed

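Each array's deposited file column holds intensities that the authors made with RMA. Per the submitters' processing notes the program was Affymetrix Expression Console; versions were not given in the sources used here. Intensities ran between 8.23 and 20398, with array medians of 66.1 to 74.4, so log2 was taken. Of 28853 probe sets, 23410 were annotated and 21789 carried 1 symbol, of which 21698 matched RefSeq names; 1621 carried several and were left out, as were 5443 not listed. The brightest probe set was kept for each of 999 genes with several, leaving 19938 genes. Arrays carry no read depth, and their number limits the precision.

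limma 3.58.1 under R 4.3.3, with files read by the data.table package (1.17.8), was run on all genes with 4 group means over 12 arrays, eBayes with a trend and Benjamini-Hochberg adjustment over all genes of each comparison, called at 0.05. The fitting code was tested on simulated data. Summaries used Python 3.11.15 and pandas 2.3.3, plots matplotlib 3.10.9. Fold values compare geometric means. Probe sets below background in SPL got a bound against the SPL arrays' background. The 20 gene lists held 216 genes, of which 203 were measured. From each list, at most 4 called genes per direction were named, with uncalled ones as counterparts, and 3 likeness neighbours for each member. The members and lists were chosen with earlier results of these data known. Alternatives were the replicate block, other normalizations, filters, backgrounds and arrays left out. List counts were also run under alternatives chosen after seeing the data, and the keratinocyte list without members was added then too.

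Replicates carry the numbers 1 to 3 in each group. Across genes, same-numbered arrays had correlated deviations from their group means: r was 0.573 to 0.729 (number 1), 0.309 to 0.449 (number 2) and 0.293 to 0.466 (number 3). Arrays of unlike numbers had a median r of -0.449, with a range of -0.633 to 0.557. The highest of these exceeded every same-numbered pair of numbers 2 and 3. Deviations from a group mean sum to 0, so negative r between unlike numbers is partly forced. The numbers were therefore taken only as a possible pairing, a basis in the data and not in the labels. The block was kept as an alternative.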

Additional observations from a re-analysis of the deposited data

How the results depend on the processing

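The replicate number as a block left 7 of the 8 genes called in each tissue comparison and 0 in each genotype comparison, and changed no call of a member. With single arrays left out, the count was 6 to 7 within Xcr1Cre+ arrays, 6 to 7 within Xcr1++ arrays, 7 to 7 averaged over both, and 0 for genotype. It fell to 2 in all 3 tissue comparisons when only genes above the median level were fitted, since 2 members were then left in the fit, and to 4 within Xcr1++ arrays without the arrays numbered 3. Krt14 then missed the threshold there (0.50, limma adjusted p = 0.0775), as did Cd207 and Cdh1 (0.31, adjusted p = 0.183). Without the arrays numbered 2, Cdh1 gave 0.33 (adjusted p = 0.278) and without an eBayes trend 0.35 (adjusted p = 0.0653). Signs turned only for differences that passed under neither setting. The Xcr1Cre+ minus Xcr1++ difference of Cd207 in SPL was -0.04 by quantile normalization and -0.22 without number 2 (single arrays left out, -0.33 to 0.22). In SDLN it was -0.06 centred on olfactory genes, -0.35 with array weights and -0.32 without number 1 (-0.25 to 0.16), and the difference between tissues was 0.13 by quantile and 0.39 without number 2 (-0.25 to 0.33). Epcam in SDLN gave -0.03 without number 1 and -0.12 without number 2 (-0.07 to 0.34), and Lamb3 in SPL 0.01 without number 2. Krt5, SDLN minus SPL, gave -0.14 (weights) and -0.07 (without number 1) within Xcr1++ (-0.10 to 0.21), -0.03 (olfactory) and -0.11 (without number 2) within Xcr1Cre+ (-0.03 to 0.20), and -0.04 (weights) averaged (-0.00 to 0.15). Its genotype difference was 0.01 in SPL without number 2, and in SDLN 0.08 (weights) and 0.11 (without number 1; -0.21 to 0.11), and between tissues -0.05 (quantile), -0.07 (olfactory) and -0.33 (without number 2; -0.12 to 0.19). Krt14 in SDLN gave 0.00 (quantile), 0.03 (weights), 0.05 (without number 2) and 0.01 (without number 3; -0.10 to 0.09). Plet1 gave -0.02 in SDLN and -0.01 between tissues without number 1 (-0.05 to 0.25 and -0.06 to 0.61), and -0.53 to 0.14 in SPL. The cause was not tested. By the olfactory 95th percentile 49 of the 96 member values were above background, and all 96 by the highest Y-linked gene or by the olfactory median. Of the list counts, those of higher laminin genes and of higher epithelial regulators became 5 and 2 without the arrays numbered 1, and the block added 1 higher gene each to the epithelial regulators, the fibroblast genes and the E-cadherin receptors, and 1 lower keratin.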
